A study of Mus musculus with 18 samples.

Results

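A set of 5 receptor and channel genes through which epithelial cells are known to sense force, irritants, acid or catecholamines were followed in the colon of Olfr78-GFP and conditional Olfr78 mice: *Trpa1*, *Piezo1*, *Piezo2*, *Adra2a* and *Asic2*. They were taken by symbol, 5 of the 52636 genes listed for every library. The 18 RNA libraries comprised 6 of sorted cells of the colon epithelium and 12 of whole colon crypts. Values are CP20M, reads per gene scaled to 20000000 per library.

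The sorted cells came from mice of 4 to 7 months. Epcam+ cells, that is all epithelial cells with no GFP, were collected from 1 WT mouse as 2 samples, so their spread is not a spread between animals. Epcam+/GFP+ cells were collected from HE mice, in which a GFP cassette has replaced the coding exon on 1 copy of *Olfr78*, and from KO mice, in which it has replaced both, as 2 pools per genotype of 2 mice each. Whole crypts of the same line came from 2 WT and 5 KO mice. Crypts of a second line, in which Vil1-Cre drives deletion of a floxed *Olfr78* in the intestinal epithelium, came from 3 eControl and 2 eKO mice. Their genotype labels were HE/WT for eControl mice 1 and 3, WT/HO for eControl mouse 2, HE/HO for eKO mouse 1 and again WT/HO for eKO mouse 2. No group received a treatment, and the age of the crypt donors was not given in the sources used here.

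*Olfr78* itself stood at 135 and 21 CP20M in the Epcam+ samples, 4822 and 4401 in the HE pools and 977 and 837 in KO pools. The count covers exons outside the replaced coding exon. *Olfr78* also shares exon bases with *Olfr560* on the same strand, listed at up to 1117 CP20M in any sorted library and 32 in any crypt library. The part of either in the KO values was not tested. In crypts *Olfr78* was 88 and 111 in WT, 7 to 42 in KO, 61 to 124 in eControl, 21 in eKO mouse 1 and 73 in the library labelled eKO mouse 2, which lay within the eControl range. Depth was 532704 to 2237486 reads on genes in sorted cells, lowest in KO pool 1, where 1 read was worth 37.5 CP20M, against 8.94 to 13.3 in the other sorted libraries. In crypts, with 6175306 to 10995343 reads, it was 1.82 to 3.24. The labels call all sorted cells enteroendocrine, but the summed markers of enterochromaffin (EC) cells, which make serotonin, were 13759 and 13635 CP20M in the Epcam+ samples against 358790 to 1124191 in the GFP+ pools.

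Enteroendocrine cells are scattered hormone-secreting cells of the gut lining that respond to the content and the movement of the lumen. EC cells are electrically excitable and release serotonin when channels or receptors at their surface are engaged. *Trpa1* encodes a cation channel opened by pungent and electrophilic irritants, *Piezo1* and *Piezo2* encode channels opened by membrane stretch, *Adra2a* encodes the alpha-2A adrenergic receptor, which couples to inhibitory Gi proteins, and *Asic2* encodes a subunit of proton-gated sodium channels of the ENaC/degenerin family. In these bulk libraries, fewer cells of a type and less RNA per cell cannot be told apart.

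In GRCm38 (GENCODE M21), *Trpa1* lies at chr1:14872648-14918862 on the minus strand, *Piezo1* at chr8:122481698-122551329 on the minus strand, *Adra2a* at chr19:54044151-54048982 on the plus strand and *Asic2* at chr11:80880169-81968457 on the minus strand. Reads were counted over exons. *Piezo1* shares exon bases with *Ctu2* on the opposite strand, listed at up to 288 CP20M in any sorted library and 286 in any crypt library, and whether the counting used strand was not given in the sources used here.

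RefSeq start sites (GRCm38.p6) were found for 3 of the 5 genes. The bases before the start that lie outside annotated exons are shown for *Asic2* and *Piezo1*, the genes with the largest positive and the largest negative difference between HE GFP+ and Epcam+ cells among the 4 that were tested. The first covers chr11:81968458-81968646 and the second chr8:122551330-122551579, both read on the minus strand. Capitals mark the TATA motif TATAAA and would mark the E-box CANNTG, the letters bound by basic helix-loop-helix factors, each searched on both strands.
Asic2: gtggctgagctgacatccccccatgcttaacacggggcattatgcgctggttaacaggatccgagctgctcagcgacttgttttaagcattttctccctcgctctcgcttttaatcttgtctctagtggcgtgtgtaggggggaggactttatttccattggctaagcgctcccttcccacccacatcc
Piezo1: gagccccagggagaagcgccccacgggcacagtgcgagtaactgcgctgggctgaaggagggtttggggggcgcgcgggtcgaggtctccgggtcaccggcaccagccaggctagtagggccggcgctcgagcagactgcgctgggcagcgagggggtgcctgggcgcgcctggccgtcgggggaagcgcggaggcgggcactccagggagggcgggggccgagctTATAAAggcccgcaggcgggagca

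The *Piezo1* stretch held 1 TATAAA, a motif found in 12.4% of all 32851 promoter windows of that length, and no CANNTG, which 66.2% of them held. The *Asic2* stretch held neither, against 8.69% and 57.1% of windows of its length. The 61 bases next to the *Asic2* start lie in an annotated exon and were left out, so a motif there could not be seen. G and C made up 74% of the *Piezo1* bases and 52.9% of the *Asic2* bases, where the median windows had 52.4% and 51.3%. A match, or its absence, describes these letters only.

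The first question was how sensor genes differ between Olfr78-expressing cells and the epithelium at large. Of the 5 genes, 4 reached 40 CP20M in at least 2 libraries and were tested with limma, and none passed an adjusted p under 0.001 with a log2 fold change beyond 2. Over all genes, 1.75% passed (287 of 16355). *Asic2* and *Piezo2* were higher and *Piezo1* and *Adra2a* were lower in HE GFP+ cells, each at an unadjusted p under 0.05, a level that 6086 of the 16355 genes also reached. Neither Epcam+ sample reached 40 CP20M for *Asic2* or *Piezo2*. These genes passed the filter only through the GFP+ pools, so their direction against Epcam+ cells was set by the filter, for HE and KO alike.

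*Asic2*, the acid-sensing subunit, was the clearest of them. It was listed at 0 and 11 CP20M in the Epcam+ samples, which is 0 and 1 read. In the HE pools it was 415 and 414, from 36 and 31 reads. The KO pools gave 226 and 163, from 6 and 14 reads. The 3 groups did not overlap: both Epcam+ samples were at or near 0, and both HE pools stood above both KO pools. Groups this small can separate by chance, here and for the genes below. The share of all genes that separate in this way was not counted. The log2 fold change of HE GFP+ over Epcam+ cells was 4.87 (SE 0.63, adjusted p = 0.00162), which missed the threshold of 0.001. Tests of the recovered reads called it, with adjusted p-values of 7.72e-05 by edgeR and 0.000378 by DESeq2, and with no more than 1 read in either Epcam+ sample the fitted fold depends on the pseudocount, from 6.91 with a pseudocount of 1 (adjusted p = 0.0195) to 3.33 with 40 (adjusted p = 0.000293). Without Epcam+ sample 2 it was 5.41 (adjusted p = 0.000656), with the spread taken from the HE pools alone, since 1 Epcam+ sample was left. On summed reads the ratio was 86.6, with a 95% interval of 15.02 to 3470 that covers counting error only and is wide because 1 read stands in the denominator.

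KO GFP+ cells had 20 *Asic2* reads against 67 in HE GFP+ cells, a ratio of 0.429 with a counting interval of 0.247 to 0.716. In the fit over pools the log2 difference, KO minus HE, was -1.07 (SE 0.49, unadjusted p = 0.0595, adjusted p = 0.933). The median over all genes was -0.22 in that comparison and -0.06 after median-of-ratios rescaling, under which the *Asic2* difference was -0.91. The summed EC markers were 609160 and 358790 CP20M in KO pools and 865020 and 1124191 in the HE pools, and their part in the *Asic2* difference was not tested. Against Epcam+ cells, KO GFP+ cells had a log2 fold change of 3.80 (SE 0.85, adjusted p = 0.132).

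*Piezo2*, the stretch channel of touch receptors, differed more between pools than between genotypes. It stood at 18 and 31 CP20M in the Epcam+ samples, at 725 and 147 in the HE pools and at 76 and 616 in KO pools. Every GFP+ pool was above both Epcam+ samples, yet HE pool 1 and KO pool 2 were high while HE pool 2 and KO pool 1 were low, the last resting on 2 reads. HE GFP+ against Epcam+ cells gave a log2 fold change of 3.33 (SE 0.77, adjusted p = 0.0168), and DESeq2 called it at 4.20 (adjusted p = 0.000316). KO against HE gave -0.55 (SE 1.00, adjusted p = 0.961), an estimate smaller than its error, and it changed sign to 0.56 without HE pool 1 and 0.88 without KO pool 1. KO GFP+ against Epcam+ cells gave 2.78 (SE 1.05, adjusted p = 0.25).

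The summed markers of L cells (*Pyy*, *Gcg* and *Insl5*, the hormones of the peptide-secreting cells of the colon) ran 385 and 639 CP20M in the Epcam+ samples, 8516 and 1523 in the HE pools and 3719 and 5474 in KO pools. The pools with the most L cell marker RNA were the same HE pool 1 and KO pool 2 that were high in *Piezo2*, but KO pool 1 had more of it than HE pool 2 and less *Piezo2*. This split was not particular to L cell markers. The summed markers of mesenchyme and muscle, such as *Dcn*, stood at 395 CP20M for HE pool 1 and 212 for KO pool 2. They were at 0 for HE pool 2 and KO pool 1. Goblet cell markers, given below, also split the GFP+ pools this way. Unlike *Piezo2*, neither sum was low in the Epcam+ samples, at 323 and 239 for mesenchyme and muscle. The part of L cells, or of these other cells, in the *Piezo2* values was not tested.

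*Piezo1*, the stretch channel of many epithelia and vessels, went the other way. It was 465 and 463 CP20M in the Epcam+ samples, 208 and 94 in the HE pools and 38 and 430 in KO pools. The Epcam+ samples were above every GFP+ pool, although KO pool 2 lay close to them and KO pool 1, with 1 read, was lowest. The log2 fold change of HE GFP+ over Epcam+ cells was -1.65 (SE 0.45, adjusted p = 0.0317), and without HE pool 1 it was -2.19 and passed both thresholds, with 1 HE pool of 7 reads left and the spread that of the 2 samples of 1 mouse. KO GFP+ over Epcam+ cells gave -1.71 (SE 0.99, adjusted p = 0.382), and without KO pool 2 it was -3.30 and was called, which rests on the 1 read of KO pool 1 and, for the spread, on the Epcam+ samples alone, a setting under which 1753 genes were called in place of 0. KO against HE gave -0.051 (SE 1.04, adjusted p = 0.998) and changed sign with either pool 1 left out, to 0.48 without HE pool 1 and 1.55 without KO pool 1.

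The summed goblet cell markers, led by the mucin gene *Muc2*, were 343021 and 291898 CP20M in the Epcam+ samples, 145605 and 66195 in the HE pools and 62176 and 326185 in KO pools. All 5 goblet markers were above 0 in every sorted library. The libraries ranked by *Piezo1* and by this sum in nearly the same order, with KO pool 2 beside the Epcam+ samples in both. This order was not particular to goblet markers. The colonocyte marker *Car1* ranked the libraries as *Piezo1* did. It was 75147 and 66795 CP20M in the Epcam+ samples, 33657 and 13482 in the HE pools and 4318 and 35383 in KO pools. Another colonocyte marker, *Krt20*, was higher in every GFP+ pool than in the Epcam+ samples. The part of goblet cells or colonocytes in the *Piezo1* values was not tested.

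**Figure D1:**
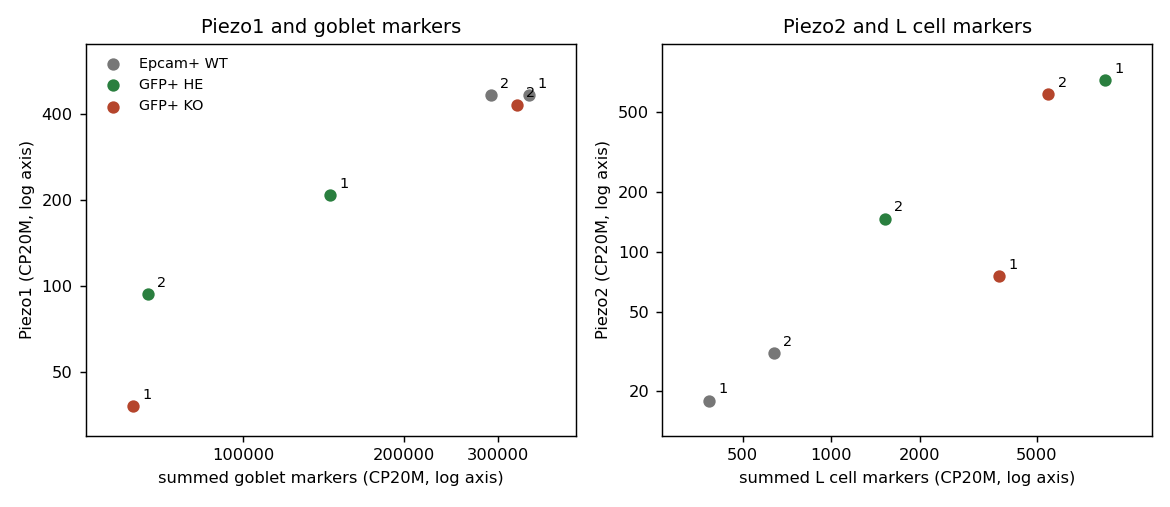
Level of Piezo1 against the summed goblet markers (left) and of Piezo2 against the summed L cell markers (right) in the 6 sorted libraries, both axes in CP20M on log scales. Each point is 1 library, labelled with its sample or pool number. KO pool 2 (430 for Piezo1) lies beside the Epcam+ samples (465 and 463) on the left, and HE pool 1 (725) and KO pool 2 (616) are the highest on the right.

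*Adra2a*, the receptor for noradrenaline that lowers cyclic AMP through Gi, was also lower in GFP+ cells. The Epcam+ samples gave 608 and 381 CP20M, the HE pools 277 and 134 and the KO pools 76 and 221. All 4 GFP+ pools were below both Epcam+ samples. The log2 fold change was -1.27 (SE 0.45, adjusted p = 0.0749) for HE and -1.80 (SE 0.61, adjusted p = 0.229) for KO GFP+ cells against Epcam+ cells, and the second was -2.51 and called without KO pool 2, again with 1 KO pool left. KO against HE gave -0.53 (SE 0.74, adjusted p = 0.949), and 0.18 without KO pool 1. Summed colonocyte markers were 87931 and 76464 CP20M in the Epcam+ samples and 19450 to 61345 in the GFP+ pools. Of the 5 markers, *Car1*, *Slc26a3*, *Aqp8* and *Car4* were lower in every GFP+ pool than in both Epcam+ samples, *Slc26a3* at 113 to 2233 against 5775 and 3904, whereas *Krt20* was higher, at 11876 to 31364 against 4434 and 3822. Their part in the *Adra2a* values was not tested.

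*Trpa1*, the irritant channel, had no read in any sorted library. Over the 4 GFP+ pools, 0 of 5491862 reads allow a level of up to 10.9 CP20M, taking 3 reads as the limit that a count of 0 allows for counting error. For comparison, the other 4 genes had 55 to 129 reads in those pools. *Trpa1* RNA was thus not detectable at this depth in GFP+ or Epcam+ cells.

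**Figure D2:**
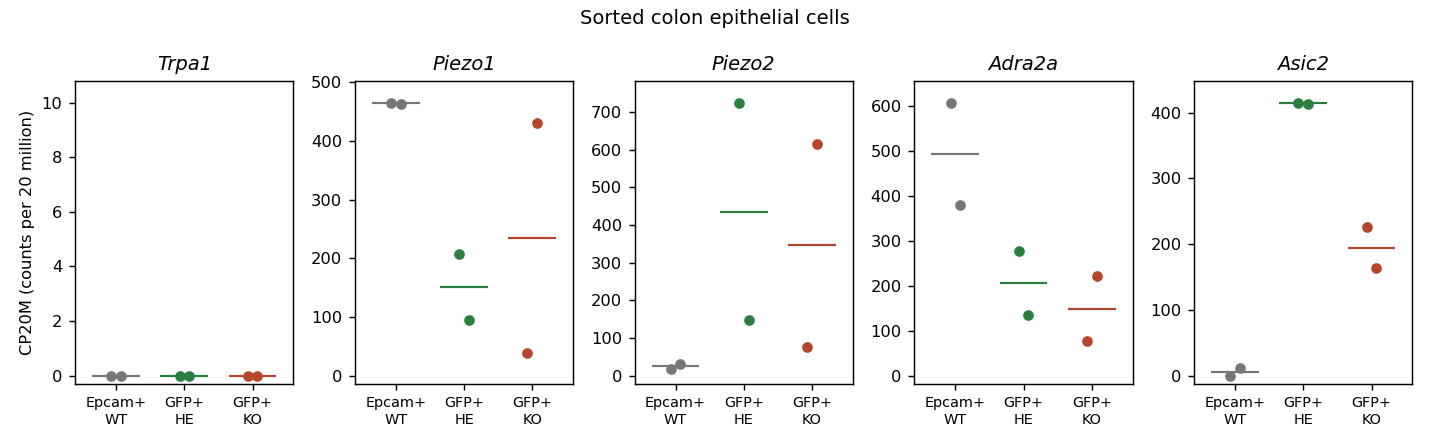
Level of each sensor gene in CP20M (vertical axis, its own range for each gene) in the 6 sorted libraries, with 1 point per library and a line at the mean of each group of 2. Asic2 lies at 0 and 11, 415 and 414, and 226 and 163 in the 3 groups. Piezo2 and Piezo1 spread widely within the GFP+ pools, and Trpa1 is at 0 throughout.

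No gene at all was called between KO and HE GFP+ cells by limma (0% of 15961, with 591 at an unadjusted p under 0.05). DESeq2 called 7 genes and edgeR none, so a share of 0 among these 4 genes equals the background. KO GFP+ cells against Epcam+ cells likewise gave 0% of 15779 by limma, with 2925 at an unadjusted p under 0.05, 31 calls by edgeR and 253 by DESeq2. Both comparisons share their samples with the first one and are not independent of it.

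Levels per kilobase of exon put the genes in a different order in the 2 kinds of sorted cells. In the HE pools the mean was 97.2 CP20M per kb for *Asic2*, 42.5 for *Adra2a*, 25.4 for *Piezo2* and 15.2 for *Piezo1*. In the Epcam+ samples it was 102 for *Adra2a*, 46.7 for *Piezo1*, 1.43 for *Piezo2* and 1.29 for *Asic2*. In HE pools the lowest *Asic2* value, 97.1 per kb, was above the highest *Adra2a* value, 57.3, whereas the ranges of *Piezo2* (8.57 to 42.2) and *Piezo1* (9.46 to 20.9) overlapped.

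The genes with the profile most like each sensor were found by the root mean square difference of centred log2 values over the 6 sorted libraries, among 17148 other genes. For *Asic2* these were *Cep170* (0.19), *Vwa5b2* (0.20) and *Slc9a7* (0.22), the last a sodium/proton exchanger. *Cep170* showed the same steps at a higher level, with 36 and 62 CP20M in the Epcam+ samples, 1278 and 1707 in the HE pools and 939 and 616 in KO pools. For *Piezo1* they were *Spdef* (0.11), a transcription factor of goblet cells, *Plk1* (0.16), a mitotic kinase, and *Fbn1* (0.18).

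*Spdef* ran 769, 946, 369, 187, 76 and 860 CP20M in the order Epcam+ 1 and 2, HE 1 and 2, KO 1 and 2, with the same low KO pool 1 and high KO pool 2 as *Piezo1*. For *Adra2a* the nearest were *Gins4* (0.14), *Tcaf2* (0.14) and *Ndufa3* (0.16). For *Piezo2* no gene came as close: *4930503B20Rik* (0.65), *Prox1os* (0.67) and *D130007C19Rik* (0.68) were nearest, each with no read in the Epcam+ samples and more in pools HE 1 and KO 2 than in HE 2 and KO 1.

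Whole crypts, in which enteroendocrine cells are a small minority, ordered the sensors as the Epcam+ samples did and unlike the HE pools. Means per kb in WT crypts were 348 CP20M for *Adra2a*, 58.7 for *Piezo1*, 5.62 for *Piezo2*, 2.23 for *Asic2* and 2.11 for *Trpa1*. *Asic2* and *Trpa1* did not reach 40 CP20M in crypts and were not tested there. *Asic2* had 31 reads over the 7 libraries of the Olfr78-GFP line and 10 over the other 5, and at most 23 CP20M in any of them, below every GFP+ pool.

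The next question was what loss of *Olfr78* in all tissues does in crypts. None of the 3 sensors tested passed an adjusted p of at most 0.2 with a change beyond 1.5-fold between KO and WT crypts, where 9.48% of all genes did (1514 of 15975). *Adra2a* was 1694 and 1668 CP20M in WT and 1006, 888, 1016, 1471 and 1802 in KO mice 1 to 5. The groups overlapped: 4 KO mice were below both WT mice and KO mouse 5 was above them. The log2 difference was -0.49 (SE 0.22, adjusted p = 0.181), which met the first threshold and missed 1.5-fold. Without KO mouse 5 it was -0.64 (adjusted p = 0.0298) and met both.

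*Piezo2* stood at 86 and 107 CP20M in WT crypts and at 163, 175, 103, 127 and 130 in KO crypts. KO mouse 3 lay between the WT mice and the other 4 KO mice above them. The log2 difference was 0.48 (SE 0.22, adjusted p = 0.187), again short of 1.5-fold. *Piezo1* was 541 and 625 in WT and 556, 872, 655, 769 and 736 in KO crypts, overlapping at KO mouse 1, with a log2 difference of 0.28 (SE 0.15, adjusted p = 0.266). Summed EC markers were 15550 and 8826 CP20M in WT and 6822 to 12275 in KO crypts, and goblet markers 436981 and 375192 in WT and 369535 to 643778 in KO crypts, and their part was not tested.

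In the line with *Olfr78* deleted in the epithelium, no gene was called between eKO and eControl crypts (0% of 15401 by limma, with 127 at an unadjusted p under 0.05, none by edgeR and 6 by DESeq2). *Piezo1* was 529, 748 and 748 CP20M in eControl and 736 and 926 in eKO crypts. *Piezo2* was 53, 141 and 126 against 121 and 122, and *Adra2a* 1504, 1497 and 1654 against 1245 and 2092. The eKO values overlapped the eControl range for *Piezo1*, fell within it for *Piezo2* and lay on either side of it for *Adra2a*. The log2 differences were 0.30 (SE 0.21) for *Piezo1*, 0.27 (SE 0.40) for *Piezo2* and 0.06 (SE 0.22) for *Adra2a*, with an adjusted p of 1 for each, and that of *Piezo2* was -0.12 without eControl mouse 1.

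Without the library labelled eKO mouse 2, whose genotype label is that of a control, the differences were 0.14 for *Piezo1*, 0.27 for *Piezo2* and -0.31 for *Adra2a*, so that *Adra2a* changed sign. The difference of the knockout effect between the lines was tested directly and no sensor passed an adjusted p of at most 0.2, where 0.0304% of genes did (5 of 16447). For *Adra2a* it was -0.55 (SE 0.36, adjusted p = 0.623), for *Piezo2* 0.20 (SE 0.44, adjusted p = 0.878) and for *Piezo1* -0.022 (SE 0.27, adjusted p = 0.983). Without the library labelled eKO mouse 2, 4296 genes were called in place of 5, and none of the 3 sensors was among them.

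**Figure D3:**
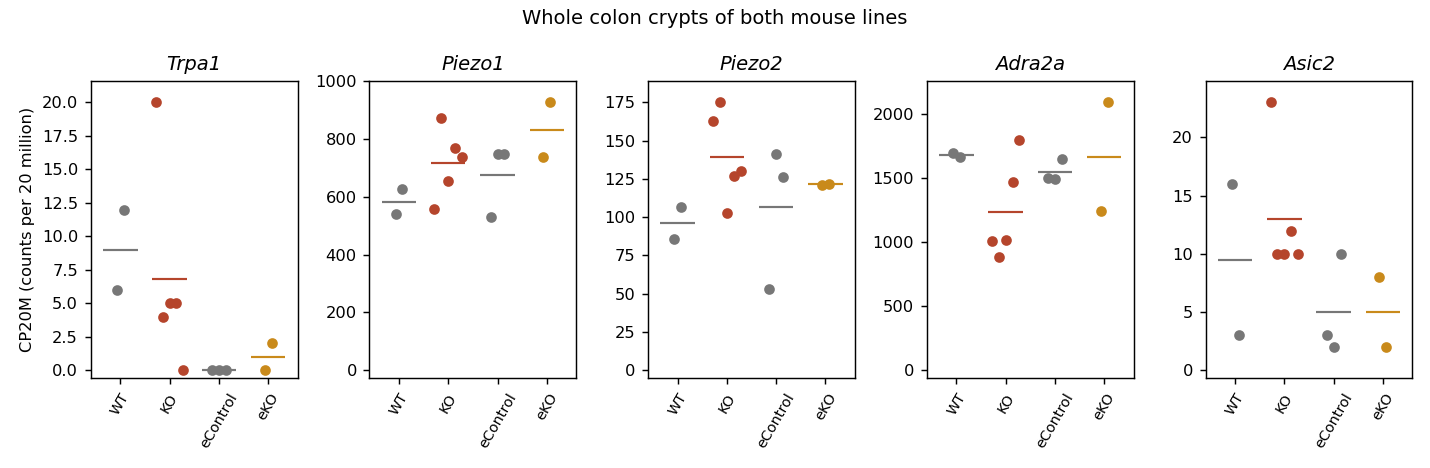
Level of each sensor gene in CP20M (vertical axis, its own range for each gene) in the 12 crypt libraries, with 1 point per mouse in the order of the mouse numbers and a line at the group mean. Adra2a in KO mice runs from 888 to 1802 around WT values of 1694 and 1668, and Trpa1 and Asic2 stay at or below 23.

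*Trpa1* in crypts had 19 reads over the 7 libraries of the Olfr78-GFP line and 1 read over the 5 of the other line, from 55722565 and 45177956 reads. It was 6 and 12 CP20M in WT crypts, 20, 4, 5, 5 and 0 in KO crypts, 0 in all eControl crypts, 0 in eKO mouse 1 and 2 in the library labelled eKO mouse 2. The 2 lines were deposited and scaled as separate tables, so this contrast between lines was not tested. The listed genes above 0 were also more numerous in crypts of the first line, 28455 to 37713 against 24929 to 28583.

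Across all 7 groups, *Adra2a* and *Piezo1* were highest in crypts, followed by Epcam+ and then GFP+ cells. Steps between one crypt group and the next in that order did not exceed the SD on the log2 scale for either gene, and nor did the step between HE and KO GFP+ cells, while the steps from crypts to Epcam+ cells and from these to HE GFP+ cells did. *Piezo2* was highest in GFP+ cells, with crypts next and Epcam+ cells last, and the step from WT crypts to Epcam+ cells was the only one beyond the SD. *Asic2* was highest in HE and then in KO GFP+ cells, both steps being beyond the SD, with all crypt groups and Epcam+ cells near the level of a few reads. The crypts of the conditional line were scaled in a table of their own, and no test of levels was run across tables.

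**Figure D4:**
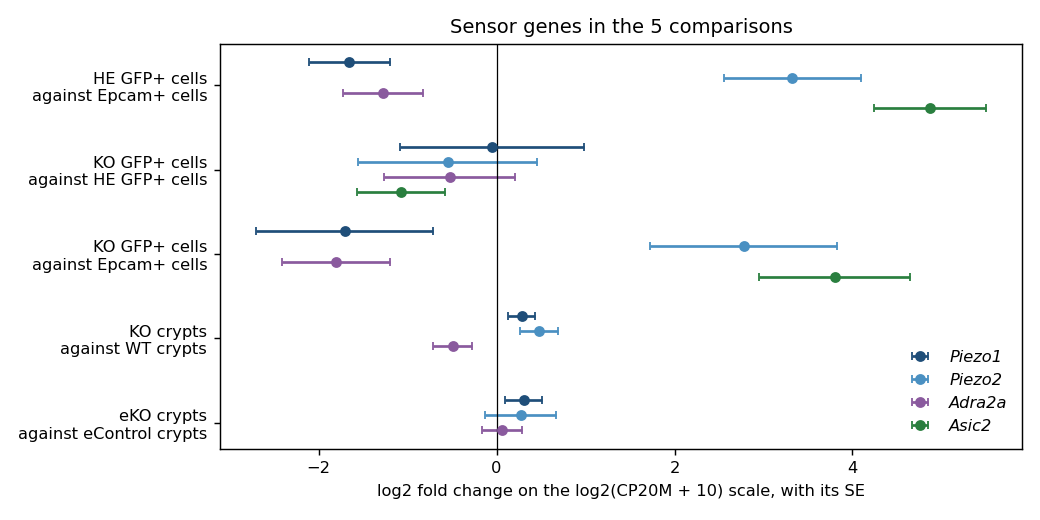
Log2 fold change of Piezo1, Piezo2, Adra2a and Asic2 on the log2(CP20M + 10) scale (horizontal axis) in 5 comparisons, with bars for the SE of the limma fit. Asic2 (4.87) and Piezo2 (3.33) lie to the right and Piezo1 (-1.65) and Adra2a (-1.27) to the left for HE GFP+ against Epcam+ cells, and all crypt values lie between -0.49 and 0.48.

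The families of these sensors were described from 5 lists. Of 28 TRP channel genes, 13 were tested in HE GFP+ against Epcam+ cells and none was called by limma, with a median log2 fold change of 0.18 against -0.05 over all genes. *Trpc1*, a store- and receptor-operated channel, had 81 and 21 CP20M in Epcam+ samples and 472 and 761 in HE pools (3.52, SE 0.61, adjusted p = 0.00521). *Trpm2*, opened by oxidants, had 63 and 42 against 530 and 147 (2.24, SE 0.67, adjusted p = 0.0427). *Trpm6*, a magnesium channel of absorptive cells, had 1726 and 1110 against 472 and 107 (-2.55, SE 0.59, adjusted p = 0.0161). On recovered reads *Trpc1* was called by edgeR and DESeq2 and *Trpm6* by DESeq2, and limma called *Trpc1* without Epcam+ sample 1 or either HE pool, *Trpm2* without HE pool 2 and *Trpm6* without HE pool 1 or with a replicate block. Another 9 of the 28, *Trpa1* among them, were at 0 in all 6 sorted libraries.

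Of 18 mechanically gated channel genes, the PIEZO genes included, 12 were tested and none was called by limma, with a median of -0.10, while DESeq2 called *Piezo2* and *Tmem63c*. *Tmem63c*, of a family of osmosensitive channels, was at 0 in both Epcam+ samples and at 162 and 241 in the HE pools (adjusted p = 0.00278). It thus passed the filter only through the HE pools. *Tmem63a* and *Tmem63b*, its relatives, were abundant in both kinds of cells, at 2253 and 1634 against 1703 and 774 for the first and 1386 and 997 against 1381 and 1094 for the second. Among 8 ASIC and ENaC subunits, 4 were tested and none was called by limma, while edgeR called *Asic2* and DESeq2 called *Asic2* and *Scnn1a*. *Scnn1a*, the alpha subunit of the epithelial sodium channel, ran opposite to *Asic2*, with 1145 and 874 CP20M in Epcam+ samples and 357 and 94 in HE pools (-2.37, SE 0.54, adjusted p = 0.0159), and it was called by limma without HE pool 1.

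By limma, 7 of the 47 genes tested over the 5 lists were called, or 14.9%, beside 1.75% of all genes, and these 7 were partners of Gi-coupled receptors or voltage-gated channels. The lists were chosen with earlier results of these data known. They include channels of EC cells, whose summed markers were far higher in the GFP+ pools. Shares of calls among list genes, here and in crypts, therefore describe these genes and do not test the lists. Of 12 genes for Gi/o proteins, the potassium channels they open and RGS proteins, which shorten their signal, 3 of the 9 tested were called, all higher in HE GFP+ cells, with a median of 2.21. *Gnao1*, the Go alpha subunit, had 72 and 42 CP20M in Epcam+ samples and 4546 and 4361 in HE pools (6.09, SE 0.31, adjusted p = 1.55e-05). *Rgs4* had 18 and 0 against 1324 and 1934 (6.59, SE 0.60, adjusted p = 0.0003), and *Gnaz* 18 and 0 against 771 and 881 (5.64, SE 0.63, adjusted p = 0.000809). The fitted changes of the last 2 depend on the pseudocount, since their Epcam+ values rest on at most 2 reads, and with a pseudocount of 1, or with no filter on low values, both lost their call. These 2 genes passed the filter only through the HE pools, the side where they were higher. By edgeR and by DESeq2, 4 were called.

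Of 10 voltage-gated channel genes of EC cells, 4 of the 9 tested were called by limma, all higher, with a median of 4.25, and 7 by edgeR and by DESeq2. *Scn3a*, a sodium channel, had 224 and 155 CP20M in Epcam+ samples, 6433 and 7308 in HE pools and 6421 and 1976 in KO pools (5.13, SE 0.25, adjusted p = 1.1e-05). The calcium channels *Cacna1h* (4.25, SE 0.20), *Cacna1a* (4.33, SE 0.26) and *Cacna1b* (2.91, SE 0.33) were the others, the last not called with a pseudocount of 1 or with no filter. In KO against HE GFP+ cells no list gene was called by limma, edgeR or DESeq2. With a single KO pool in the fit some were, with that pool below the HE pools. Without KO pool 1 these were *Gnao1* (-1.60), *Rgs4* (-1.83), *Scn3a* (-1.79) and *Cacna1a* (-1.31). Without KO pool 2 they were *Gnaz* (-3.28), *Tmc3* (-4.08), *Tmc8* (-3.48) and *Trpc4* (-3.49). The pool left out did not always go the same way. *Rgs4* was 1953 CP20M in KO pool 1, above both HE pools. *Tmc3*, *Tmc8* and *Trpc4* were at 0 in KO pool 1, so without KO pool 2 they passed the filter through the HE pools alone. In KO pool 2 *Tmc3* (245) and *Tmc8* (140) were above both HE pools and *Trpc4* (82) was between them.

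**Figure D5:**
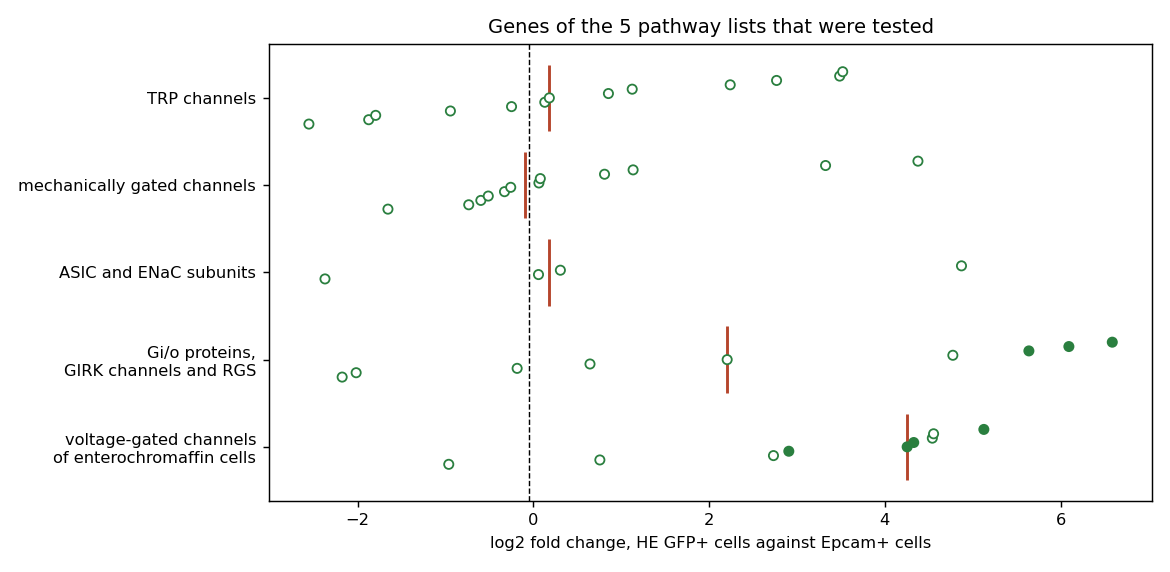
Log2 fold change between HE GFP+ and Epcam+ cells (horizontal axis) of every tested gene in the 5 lists (rows), with 1 circle per gene, filled where it was called. The short vertical line is the median of the list and the dashed line the median of all genes (-0.05). The 7 filled circles lie in the lists of Gi/o partners and voltage-gated channels, with medians of 2.21 and 4.25.

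In KO against WT crypts, 8 of the 43 list genes tested were called by limma, or 18.6%, beside 9.48% of all genes. *Trpv3*, a warmth-sensitive channel, had 184 and 215 CP20M in WT and 448 to 1223 in KO crypts (1.87, SE 0.30, adjusted p = 0.00786). *Scnn1g* (1.83, SE 0.43, adjusted p = 0.0265) and *Scnn1b* (0.84, SE 0.18, adjusted p = 0.0197), the other subunits of the epithelial sodium channel, were also higher, from 24 and 10 to a range of 41 to 162 and from 94 and 86 to a range of 139 to 196. *Scnn1g* passed the filter only through the KO crypts, the side where it was higher. *Cacna1b* (0.78), *Cacna1c* (0.66), *Cacna1a* (0.65) and *Trpc1* (0.59) were higher and *Rgs16* (-1.02) was lower. The list of mechanically gated channels had no call, with 13 genes tested.

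Several of these calls depended on the libraries or the processing. Leaving out WT mouse 2 left 1 WT library and a weaker test. *Scnn1b*, *Scnn1g*, *Cacna1a*, *Cacna1c*, *Trpc1* and *Rgs16* were then not called, with log2 differences of 0.78, 1.45, 0.45, 0.64, 0.40 and -0.64. *Trpc1* also lost its call without WT mouse 1 or KO mouse 1, 2 or 4. It was not called with a pseudocount of 40, median-of-ratios scaling or no filter, nor by DESeq2. *Cacna1c* lost its call without WT mouse 1 or KO mouse 1 or with a pseudocount of 40, and *Cacna1a* with median-of-ratios scaling. In the crypts of the other line no list gene was called, and *Trpv3* was 193, 830 and 1075 CP20M in eControl and 361 and 754 in eKO crypts, with the eKO values inside the eControl range.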

How the data were processed

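RNA was read from 18 libraries in 2 tables, 1 for the sorted cells and crypts of the Olfr78-GFP line and 1 for the crypts of the conditional line. Per the methods, STAR was used by the authors for mapping to GRCm38 and HTSeq for counting over Ensembl genes. Counts were scaled to 20000000 per library, and that they were rounded up was inferred here from the values. For sorted cells the authors deposited the scaled counts as a signal per gene, and for crypts as a score per gene made in the same way. Dividing by the value of 1 read gave whole reads for 99.83% to 99.99% of the values in each library, and these recovered reads entered the tests of counts. All columns were used, and groups follow the sample titles.

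A gene entered a test where at least 2 of the libraries compared reached 40 CP20M (2 CPM). The test was limma 3.58.1 with a trend of the spread on log2(CP20M + 10), with Benjamini-Hochberg adjustment over all genes tested. Log2 fold changes are on that scale and understate the change of low genes. Thresholds followed the methods of the study, except for KO against HE GFP+ cells, where an adjusted p under 0.05 was used. The study applied its thresholds to edgeR results, and for crypts to both lines together. Here they were applied to limma and within each line, so numbers of calls cannot be set beside those of the study. Alternatives tried were a pseudocount of 1 or 40, rescaling by median of ratios, no filter on low values, edgeR 4.0.16 quasi-likelihood and DESeq2 1.42.0 on recovered reads, the replicate number as a block and leaving out each library. Where that left 1 library in a group, it was assumed to vary like the other group. Functions were tested on simulated data. P-values measure the spread between these libraries, which for the Epcam+ samples of 1 mouse may be technical. Counting intervals are exact and cover counting error only, and reads are not independent molecules, since use of molecular identifiers was not given in the sources used here.

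The 5 genes and the gene lists were chosen with earlier results of these data known. Genes named from the lists had passed the thresholds, except *Trpc1*, *Trpm2*, *Trpm6*, *Tmem63a*, *Tmem63b*, *Tmem63c* and *Scnn1a* in sorted cells, which were chosen after their values were seen. The 3 genes with the most similar profile were named for each sensor tested in sorted cells. Recovered reads of replicates all differed by more than sampling noise. A further list of genes is not reported here.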

Additional observations from a re-analysis of the deposited data

Results flagged for a closer look

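In the 5 KO crypt libraries, KO mouse 1 stood apart for 2 of the 5 sensor genes by Dixon's test of the gap to the nearest value. *Trpa1* was 20 CP20M there against 0 to 5 in the other 4, and *Asic2* was 23 against 10 to 12. These are 7 and 8 reads. Chance alone marks about 5% of groups in this way, and 5 were looked at. The same library listed 37713 genes above 0, where the other KO crypt libraries listed 28455 to 33385, and the part of that in both values was not tested.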

How the results depend on the processing

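None of the 5 genes was called in any comparison as reported. For HE GFP+ against Epcam+ cells, 1 was called (*Asic2*) with a pseudocount of 40, by edgeR or with a replicate block and 2 (*Asic2*, *Piezo2*) by DESeq2, and leaving out 1 library gave 0 to 1, *Asic2* without Epcam+ sample 2 and *Piezo1* without HE pool 1. For KO GFP+ against Epcam+ cells the range was 0 to 2, with *Piezo1* and *Adra2a* called without KO pool 2. For KO against WT crypts the replicate block called 2, *Adra2a* (-0.82) and *Piezo2* (0.76), and the range without 1 library was 0 to 1.

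For KO against HE GFP+ cells the *Piezo1* difference turned positive with a pseudocount of 40 (0.071), median-of-ratios scaling (0.10), edgeR (1.00) and DESeq2 (0.91), and *Piezo2* by edgeR (0.020). Without 1 library it ran from -1.65 to 1.55 for *Piezo1*, from -1.98 to 0.88 for *Piezo2* and from -1.24 to 0.18 for *Adra2a*, and stayed negative for *Asic2* under all 13 alternatives, from -1.29 to -0.85. For eKO against eControl crypts it ran from -0.12 to 0.51 for *Piezo2* and from -0.31 to 0.43 for *Adra2a*, and for the difference between lines from -0.19 to 0.14 for *Piezo1* and from -0.0315 to 0.60 for *Piezo2*. The cause of these changes was not tested.

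Counts over all genes moved more. For HE GFP+ against Epcam+ cells they were 77 with a pseudocount of 1, 522 with 40, 93 with no filter, 746 by edgeR, 720 by DESeq2, 523 with the block and up to 1195 without HE pool 1, against 287. For KO against HE GFP+ cells, 728 genes were called without KO pool 2 and 159 without KO pool 1, against 0, and for KO GFP+ against Epcam+ cells 1753 and 210, with 194 in the block. For KO against WT crypts a pseudocount of 40 gave 854 and leaving out WT mouse 2 gave 546, against 1514, and median-of-ratios scaling turned a split of 1270 higher and 244 lower into 1070 and 355. For the difference between lines DESeq2 gave 66 and the block 50, and leaving out eControl mouse 1 gave 616. In eKO against eControl crypts the block called 13.

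Replicate numbers are the same across groups but name different animals. Deviations of same-numbered libraries correlated at 0.03, -0.16 and 0.02 in the 3 comparisons of sorted cells, at 0.06 and -0.10 for KO and WT crypts and at 0.59 and 0.36 for eKO and eControl crypts. In KO against HE GFP+ cells the replicate block called 1 gene and a crossed pairing, added after seeing the data, 80, *Gnaz* among them. *Gnaz*, *Rgs4*, *Asic2*, *Tmem63c* and *Piezo2* fell below the filter when either HE pool was left out and have no value there, so the dependence of *Piezo2* on HE pool 1 could not be seen in that comparison. Depth limits KO pool 1, where 1 to 6 reads stand behind 4 of the genes.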

Other observations

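In the crypts of the conditional line, 3 channel genes chosen after their values were seen ran alike across genotypes. *Trpv6*, an epithelial calcium channel, was 11, 658 and 507 CP20M in eControl mice 1 to 3 and 16 and 355 in the libraries labelled eKO mouse 1 and 2. *Trpv3* was lowest in the same eControl mouse 1 and eKO mouse 1, at 193 and 361 against 754 to 1075 in the other 3, and *Scnn1g* was 6 and 18 there against 59 to 79. The colonocyte marker *Slc26a3*, an anion exchanger, was also lowest there, at 10070 and 7137 against 15434 to 20340, and its part was not tested. Some other channel genes were also lowest there. *Trpm6* was 2369 and 1786 against 3199 to 5340, and *Pkd2* was 258 and 192 against 407 to 515. Others did not run this way, *Trpm5* at 566, 490 and 502 in eControl and 282 and 357 in eKO crypts for example. In the Olfr78-GFP line *Trpv6* was 14 and 21 in WT and 13 to 56 in KO crypts. No test was run on this pattern.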
